A study of Mus musculus with 4 samples.

Results

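The genes described here are 10 genes of MHC class I antigen presentation, measured after fluoxetine in S-180, a tumour cell line from a mouse sarcoma. The genes are H2-D1, H2-K1, B2m, Tap1, Tap2, Tapbp, Psmb8, Psmb9, Nlrc5 and Erap1. They were chosen by name, and every probe whose transcript accession maps to one of these symbols was used, giving 15 of 56558 probes on the array. Of the 10 genes, 5 had 1 probe and 5 had 2 probes, and the array covered 23771 gene symbols in all. One group of 2 arrays held RNA of cells kept for 12 h with fluoxetine at 20 µM, and the other group of 2 arrays held RNA of cells kept as long with no drug. Fluoxetine is an antidepressant that blocks serotonin reuptake. All cells grew in RPMI with 10% serum, and no genotype or passage is given. The submitters call the arrays of a group biological replicates, with no word on separate cultures, and p-values therefore reflect the spread among these arrays, which may be technical. RNA was taken from whole cultures, so fewer cells of a kind and less RNA per cell cannot be told apart.

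MHC class I molecules show peptides from inside a cell to cytotoxic T cells. The heavy chains, here H2-D1 and H2-K1, pair with beta-2 microglobulin, the product of B2m. Peptides cut by the proteasome enter the endoplasmic reticulum through the transporter formed by Tap1 and Tap2, are trimmed by the aminopeptidase Erap1, and are loaded with the help of tapasin, the product of Tapbp. Psmb8 and Psmb9 encode catalytic subunits of the immunoproteasome, and Nlrc5 encodes a transcriptional activator of class I genes. Many of these genes are induced by interferons.

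The start regions of the class I genes carry short motifs known to bind NF-κB, interferon-regulated factors and the Nlrc5-associated factor complex. Windows from 250 bases before to 50 bases after each annotated start were available from RefSeq (build GRCm38.p6) for 8 of the 10 genes. Shown here are H2-D1 and H2-K1, which are compared below, B2m, their common partner, and Tap1, whose window lies almost wholly inside that of Psmb9. Capitals mark matches, on either strand, to GGGGATTCC or GGNNTTTCC (NF-κB), GAANNGAAA or GAAANNGAA (interferon element), TGACG (core of the X2 box) and ATTGG (core of the Y box), and these matches do not overlap one another in the windows shown. The windows are H2-D1 at chr17:35262844-35263143 (plus strand), H2-K1 at chr17:34000298-34000597 (minus strand), B2m at chr2:122147437-122147736 (plus strand) and Tap1 at chr17:34187306-34187605 (plus strand), each written 5′ to 3′.
H2-D1: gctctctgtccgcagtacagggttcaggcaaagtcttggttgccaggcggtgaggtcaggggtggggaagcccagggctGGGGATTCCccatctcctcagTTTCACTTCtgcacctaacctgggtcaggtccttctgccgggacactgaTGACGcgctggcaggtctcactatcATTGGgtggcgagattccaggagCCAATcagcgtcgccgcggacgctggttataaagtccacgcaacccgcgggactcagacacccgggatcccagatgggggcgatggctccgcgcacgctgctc
H2-K1: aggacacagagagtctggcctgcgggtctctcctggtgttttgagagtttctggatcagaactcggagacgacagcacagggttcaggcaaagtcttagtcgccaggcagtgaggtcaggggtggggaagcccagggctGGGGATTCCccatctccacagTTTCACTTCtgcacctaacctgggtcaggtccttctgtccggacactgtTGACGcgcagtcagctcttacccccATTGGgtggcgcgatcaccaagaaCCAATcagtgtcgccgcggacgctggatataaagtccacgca
B2m: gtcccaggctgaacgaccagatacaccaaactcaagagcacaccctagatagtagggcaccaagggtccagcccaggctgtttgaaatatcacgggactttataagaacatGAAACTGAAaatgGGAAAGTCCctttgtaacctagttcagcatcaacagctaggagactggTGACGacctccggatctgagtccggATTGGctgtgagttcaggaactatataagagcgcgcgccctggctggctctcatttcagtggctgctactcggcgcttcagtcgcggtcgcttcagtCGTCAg
Tap1: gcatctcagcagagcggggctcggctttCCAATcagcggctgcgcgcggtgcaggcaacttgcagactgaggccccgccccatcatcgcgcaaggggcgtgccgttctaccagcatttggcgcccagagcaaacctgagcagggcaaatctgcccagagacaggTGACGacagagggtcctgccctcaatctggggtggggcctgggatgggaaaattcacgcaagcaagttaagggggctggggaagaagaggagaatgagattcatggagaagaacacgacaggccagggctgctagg

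The windows of H2-D1 and H2-K1 aligned over 228 columns with 90.4% identity. Both held GGGGATTCC, found in 0.25% of all 32851 windows, and GAANNGAAA, found in 7.52%. In B2m the matches were to GGNNTTTCC (5.82% of windows) and GAAANNGAA (8.56% of windows). H2-D1, H2-K1 and B2m also held TGACG and ATTGG with 20 bases between them, an arrangement found in 0.0944% of windows and searched for after these windows had been read. The single cores are common, with TGACG in 20.8% and ATTGG in 37.4% of windows. Of the 8 genes with a window, 5 held TGACG and 6 held ATTGG. The Tap1 and Psmb9 windows share 275 bases, and their starts point away from each other. A match is a string of letters and not a measured binding site.

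Signal is given as scaled signal, which is the background-corrected brightness of a spot divided by its array's 75th percentile and multiplied by the geometric mean of those percentiles (624). Signals of different probes cannot be set against each other, because probes differ in how well they bind. A change is the log2 difference, fluoxetine minus control, with its standard error from limma (n = 2 arrays per group). Probes entered the test if both arrays of either group marked them well above background, and a probe was called at a Benjamini-Hochberg adjusted p under 0.05 over all 28270 tested probes. Of those probes 26.5% were called, 12.1% higher and 14.4% lower with fluoxetine. The 75th percentiles of the 4 arrays ran from 554 to 675, 51.7% to 53.5% of non-control spots were well above background, and no spot was saturated (0 on each array). All arrays lay on 1 slide with both arrays of a group side by side, so place on the slide and treatment cannot be told apart. The smallest p an exact permutation test of one value can reach with 4 arrays is 0.333.

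H2-D1 and Tapbp were higher after fluoxetine, by 1.74-fold for H2-D1 and by 1.43-fold and 1.68-fold for the 2 Tapbp probes. The brighter Tap1 probe was lower, at 0.425 times control, and the other Tap1 probe was not. B2m, H2-K1, Tap2, Psmb9, Nlrc5 and Erap1 did not pass the test on any probe, and Psmb8 was not well above background. In all, 12 of the 15 probes were tested, covering 9 of the 10 genes. Of these 3 were called higher, 1 was called lower and 8 were not called, so 33.3% of the member probes were called against 26.5% of all probes. The median change over the 12 probes was 0.20, against −0.04 over all tested probes. Taken per gene by the brightest tested probe, the median of the 9 member genes was −0.02, against 0.02 over all genes. The probe median thus lay above that of all tested probes while the gene median did not, so no shift of the member genes is claimed. In 10 of the 12 probes the groups did not overlap, which was true of 73.2% of all tested probes. When 1 array was left out, between 0 and 1 of the 12 probes were called.

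**Figure D1:**
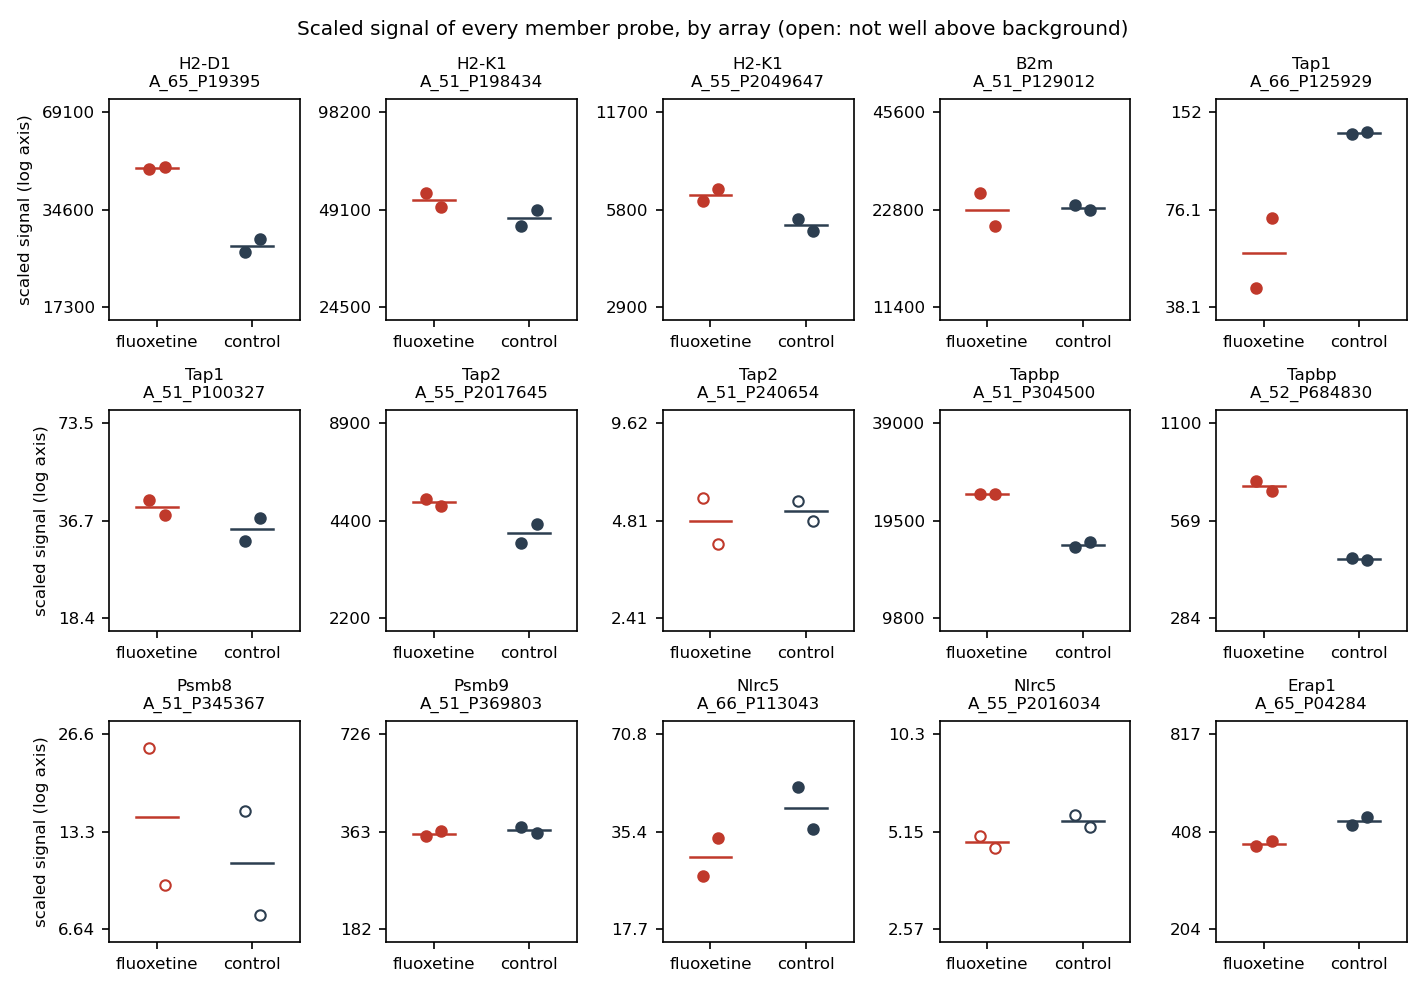
Scaled signal (log axis) of all 15 member probes on each array, fluoxetine left and control right, with lines at the geometric mean of each group. Every panel spans the same fold range, and open points are not well above background. The fluoxetine arrays of H2-D1 and both Tapbp probes sit above the control arrays, those of the first Tap1 probe sit below, and those of B2m lie on both sides of the control arrays.

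Among the heavy chain genes, H2-D1 (probe A_65_P19395) had scaled signals of 46235 and 46849 in fluoxetine 1 and 2, against 25491 and 28043 in control 1 and 2. Both fluoxetine arrays were above both control arrays, and the arrays of each group lay close together. H2-D1 rose by 0.80 ± 0.09 (adjusted p = 0.0177). The change kept its sign in every alternative run, between 0.73 and 0.87. Leaving out single arrays, its adjusted p was 0.0993 without fluoxetine 1, 0.0916 without fluoxetine 2, 0.0681 without control 1 and 0.0427 without control 2.

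H2-K1, the other classical heavy chain gene on this list, had 2 probes. Its first probe, A_51_P198434, had scaled signals of 55226 and 50026 with fluoxetine, against 43652 and 49053 in control. The lower fluoxetine array was just above the higher control array, and the change was 0.18 ± 0.11 (adjusted p = 0.265, 95% interval −0.12 to 0.49). The second probe, A_55_P2049647, had 6209 and 6779 with fluoxetine, against 5451 and 5026 in control. Its groups did not overlap, and its change of 0.31 ± 0.10 did not pass (adjusted p = 0.0892). The changes of the 2 H2-K1 probes differed by 0.13 ± 0.17 in the test of the probe pair (adjusted p = 0.616).

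Because H2-D1 passed and H2-K1 did not, the within-array log2 ratio of their probes was compared directly. The ratio of H2-D1 to the first H2-K1 probe was higher with fluoxetine by 0.62, and to the second by 0.49. The ratio of H2-D1 to B2m was higher by 0.82. In each of these 3 comparisons both fluoxetine arrays lay above both control arrays, with an exact permutation p of 0.333 (two-sided), the smallest this design allows. All 3 reuse the H2-D1 values, which had already passed, so they are not separate observations. How often ratios of other probes separate the groups was not counted, so the ratios cannot decide whether H2-D1 and H2-K1 responded differently. H2-D1 and H2-K1 belong to a family of near-identical and highly polymorphic genes, and which family members or alleles each probe detects in S-180 cells was not tested.

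B2m (probe A_51_P129012), the common light chain, had scaled signals of 25715 and 20252 with fluoxetine, against 23551 and 22746 in control. The control arrays lay between the fluoxetine arrays. The change was −0.02 ± 0.15 (adjusted p = 0.924), with a 95% interval from −0.44 to 0.40, and its sign turned in 4 of 15 alternatives.

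The peptide transporter gene Tap1 gave opposite directions on its 2 probes. Probe A_66_P125929 had scaled signals of 43.7 and 71.6 with fluoxetine, against 131 and 133 in control. Both fluoxetine arrays were below both control arrays, but they lay 0.71 apart on the log2 scale, where the median gap between fluoxetine arrays over all tested probes was 0.12. This probe fell by 1.24 ± 0.27 (adjusted p = 0.0469). It was called in 7 of 15 alternatives and in none of the 4 that left out 1 array. The change was −0.88 without fluoxetine 1 and −1.59 without fluoxetine 2. With normexp on median signal it was −0.71 (adjusted p = 0.0241).

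The second Tap1 probe, A_51_P100327, had scaled signals of 42.5 and 38.3 with fluoxetine, against 31.8 and 37.5 in control. These values lie near the lowest scaled signal that counted as well above background, which ran from 15.4 to 20.6 over the arrays. Its change was 0.23 ± 0.13 (adjusted p = 0.244). Tested as a pair, the change of the second probe exceeded that of the first by 1.46 ± 0.32 (adjusted p = 0.0565), where 11.2% of 6350 probe pairs of all genes were called different. Under 3 of the alternatives, the strict filter (adjusted p = 0.0456), quantile normalization (adjusted p = 0.0478) and normexp on median signal (adjusted p = 0.0378), the pair was called. Both probes map to 1 transcript in the files, and whether they detect different forms of the transcript was not tested.

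Tap2, the partner of Tap1, was measured by probe A_55_P2017645, with scaled signals of 5195 and 4952 with fluoxetine, against 3806 and 4333 in control. The groups did not overlap. Its change of 0.32 ± 0.10 did not pass (adjusted p = 0.0948), except under the variance model with an intensity trend (adjusted p = 0.0429). The other Tap2 probe, A_51_P240654, was not well above background on any array, with scaled signals of 5.67 and 4.08 with fluoxetine, against 5.53 and 4.78 in control.

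Tapbp, which encodes the loading chaperone tapasin, was the member gene with both probes called. Probe A_51_P304500 had scaled signals of 23577 and 23500 with fluoxetine, against 16135 and 16704 in control. Probe A_52_P684830 had 754 and 704 with fluoxetine, against 437 and 429 in control. On both probes the fluoxetine arrays were above the control arrays, and the arrays of a group differed little. The first probe rose by 0.52 ± 0.07 (adjusted p = 0.0238) and the second by 0.75 ± 0.08 (adjusted p = 0.0175). The second probe's change exceeded the first's by 0.23 ± 0.11, which did not pass (adjusted p = 0.215). Neither probe was called when any one array was left out, with adjusted p from 0.0516 to 0.118 and changes from 0.49 to 0.80.

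Of the immunoproteasome genes, Psmb9 (probe A_51_P369803) had scaled signals of 351 and 364 with fluoxetine, against 376 and 361 in control. The groups overlapped, and the change was −0.04 ± 0.08 (adjusted p = 0.70, 95% interval −0.27 to 0.18). Psmb9 shares its start region with Tap1, whose brighter probe fell. Psmb8 (probe A_51_P345367) had scaled signals of 24.05 and 9.11 with fluoxetine, against 15.3 and 7.34 in control, none of them well above background, so no change is given.

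The transactivator gene Nlrc5 was dim. Probe A_66_P113043 had scaled signals of 25.8 and 33.9 with fluoxetine, against 48.5 and 36.1 in control, and its change of −0.50 ± 0.22 did not pass (adjusted p = 0.172). Its second probe, A_55_P2016034, was not well above background on any array, with scaled signals of 4.98 and 4.57 with fluoxetine, against 5.79 and 5.31 in control. Erap1 (probe A_65_P04284), the trimming peptidase gene, had scaled signals of 367 and 382 with fluoxetine, against 427 and 454 in control. Both fluoxetine arrays of Erap1 were lower, and the change of −0.23 ± 0.08 did not pass (adjusted p = 0.112).

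**Figure D2:**
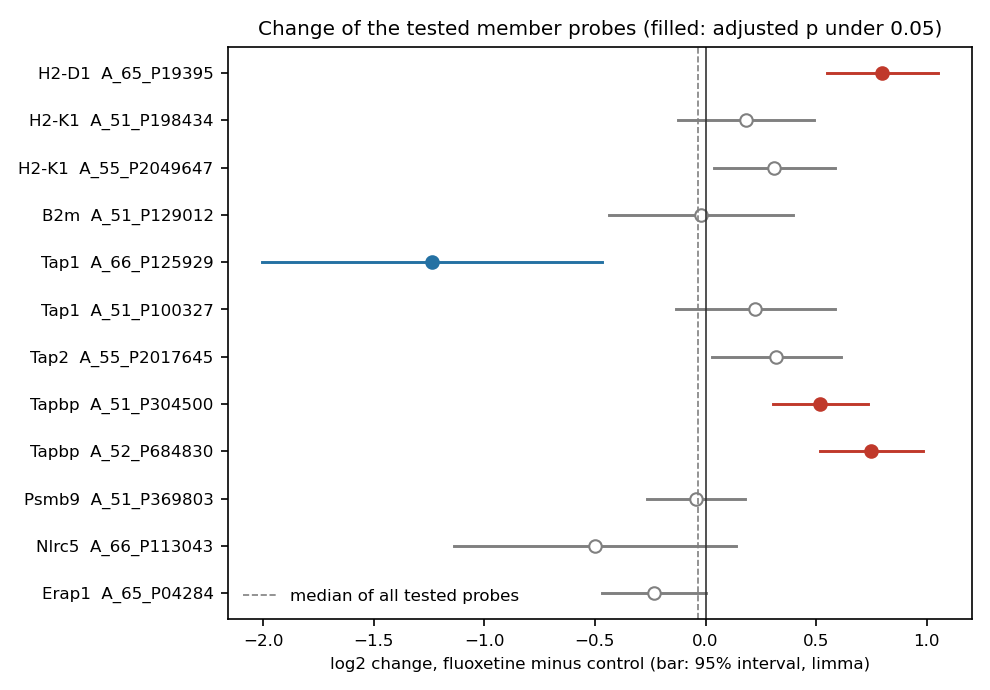
Log2 change, fluoxetine minus control, of the 12 tested member probes, with 95% intervals from limma. Filled points have an adjusted p under 0.05, and the dashed line is the median of all tested probes (−0.04). H2-D1 and both Tapbp probes lie to the right of 0, and the brighter Tap1 probe lies to the left with the widest interval.

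**Figure D3:**
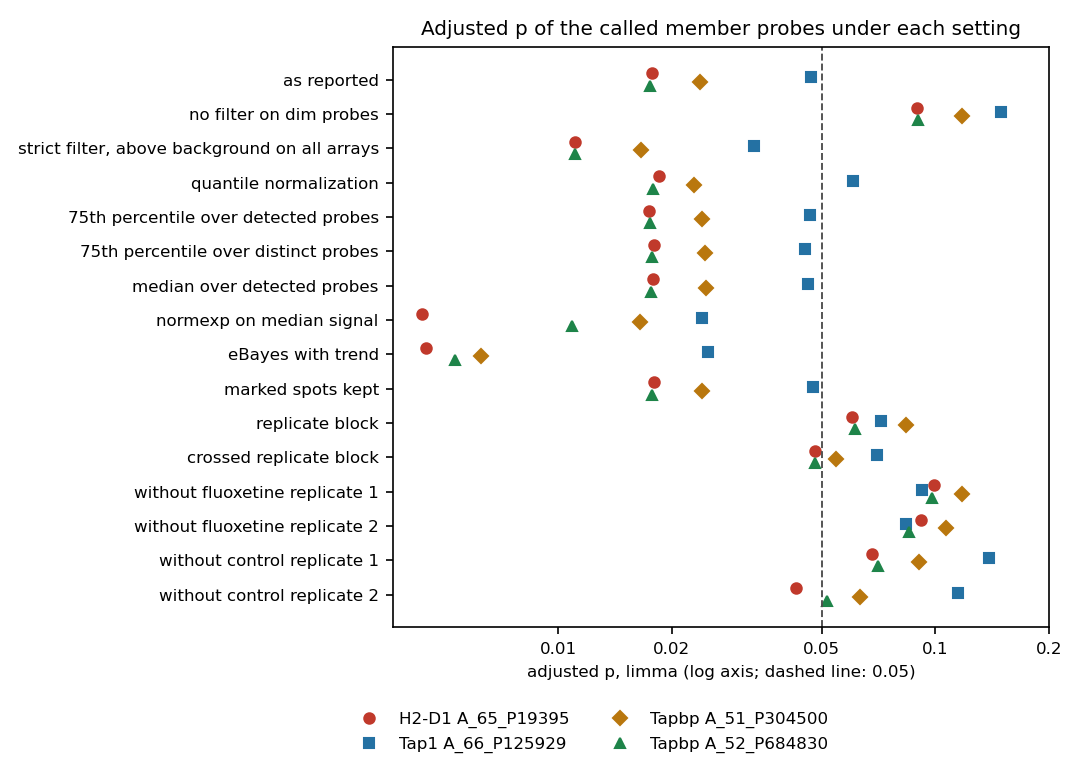
Adjusted p (log axis) of the 4 called member probes as reported and under 15 other settings, with a dashed line at 0.05. The Tap1 probe lies closest to the line as reported (0.0469). All 4 probes lie to the right of the line without a filter, with the replicate block, and without fluoxetine 1, fluoxetine 2 or control 1.

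Other genes of the pathway were read from lists of heavy chains, loading factors, proteasome genes, peptidases, regulators, interferon signalling and class II genes. Each gene was represented by its brightest tested probe. Over all 13539 such genes, 13.8% were called higher and 9.91% lower, with a median change of 0.02. All list calls below were lost without fluoxetine 1, without fluoxetine 2 or without control 1, where 0 genes of any list were called.

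Of 22 other class I heavy chain and class I-like genes with a probe, 16 were tested: 5 rose, 1 fell and 10 did not pass, with a median change of 0.13. H2-Q7 had scaled signals of 30504 and 28324 with fluoxetine, against 13904 and 16857 in control, a rise of 0.94 ± 0.13 (adjusted p = 0.0226). Its 2 other tested probes had changes of 0.34 and −0.10, and neither passed. H2-Q8 rose by 0.82 ± 0.08 and H2-Q2 by 0.73 ± 0.08. H2-Q4 fell by 1.15 ± 0.12 (adjusted p = 0.0172), with 10245 and 11864 with fluoxetine, against 23115 and 26032 in control. H2-M2 (0.63 ± 0.11) and H2-T10 (0.62 ± 0.11), named after their values were seen, completed the rises. The other H2-M2 probe, not well above background on either fluoxetine array, was at least 1.54-fold lower with fluoxetine. It passed the filter only through the control arrays, so its fall gives no test of direction. Not passing were H2-T23 (0.39) and Mr1 (−1.03). H2-Q and H2-T genes are close copies of each other and of H2-D1 and H2-K1, so these probes may share targets.

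Of 9 loading and translocation genes, 2 rose, 1 fell and 6 did not pass, with a median change of −0.06. Calr, which encodes the loading complex chaperone calreticulin, had scaled signals of 8211 and 8099 with fluoxetine, against 5519 and 5656 in control, a rise of 0.55 ± 0.07 (adjusted p = 0.022). Bcap31, an export receptor gene of the endoplasmic reticulum, rose by 0.37 ± 0.08 (adjusted p = 0.0417), and the translocon gene Sec61b fell by 0.38 ± 0.08 (adjusted p = 0.044). The brightest probes of the thiol oxidoreductase gene Pdia3 (0.22 ± 0.12) and the translocon gene Sec61a1 (−1.26 ± 0.47) did not pass, while another Pdia3 probe rose by 0.69 ± 0.11 (adjusted p = 0.0288) and another Sec61a1 probe fell by 0.48 ± 0.09 (adjusted p = 0.0328). Tapbpl, which encodes a relative of tapasin, was at −0.14 ± 0.08 on its brightest probe and did not pass (adjusted p = 0.229). Its other probe rose by 1.09 ± 0.08 (adjusted p = 0.0143).

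Of 8 other proteasome genes tested, 2 rose, 0 fell and 6 did not pass, with a median change of 0.04, while 4 had an unadjusted p under 0.05 in limma. Psme3, a proteasome activator gene, rose by 0.86 ± 0.09 (adjusted p = 0.0175) and Psmb7, a constitutive catalytic subunit gene, by 0.58 ± 0.11 (adjusted p = 0.0363). Psmb10, which encodes a further immunoproteasome subunit, had scaled signals of 4413 and 4195 with fluoxetine, against 5936 and 5198 in control, and its change of −0.37 ± 0.10 did not pass (adjusted p = 0.0754). Psmb6, another constitutive catalytic subunit gene, was at −0.25. Psma3 did not pass on its brightest probe (−0.15), while its other probe fell by 0.84 ± 0.09 (adjusted p = 0.0177). Of 6 peptidase genes, Npepps, a cytosolic aminopeptidase gene, rose by 0.54 ± 0.07 (adjusted p = 0.0223), and its 2 other probes also rose, by 0.66 and 0.69. The other 5 did not pass on their brightest probes, among them Lnpep (0.25) and Tpp2 (−0.18). Blmh was at −0.11 on its brightest probe, while its other probe rose by 0.36 ± 0.08 (adjusted p = 0.0462).

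Of 20 transcription regulators of class I genes, 2 rose, 1 fell and 17 did not pass, with a median change of 0.04. Nfya, which encodes a Y box binding subunit, rose by 0.52 ± 0.10 (adjusted p = 0.0402), and Rfxank, which encodes an X box binding subunit, rose by 0.39 ± 0.08 (adjusted p = 0.0401). Their partner genes Nfyb (−0.15), Nfyc (0.05), Rfx5 (0.20) and Rfxap (0.08) did not pass on their brightest probes. Another Rfx5 probe fell by 0.78 ± 0.12 (adjusted p = 0.0248). Usf1 fell by 0.33 ± 0.07 (adjusted p = 0.049), while its other probe rose by 0.43 ± 0.08 (adjusted p = 0.0369). Irf8 (0.35, adjusted p = 0.0523) and Creb1 (−0.65, adjusted p = 0.126) did not pass. The spaced TGACG and ATTGG cores lay in the windows of 27 genes of the table, H2-D1, H2-K1, B2m and H2-M3 among them. Of the 23 that were tested, 4 were higher, 2 were lower and 17 did not pass, with a median change of 0.13. GGGGATTCC lay in the windows of 80 genes, including H2-D1, H2-K1, H2-Q6 and H2-Q7. Of the 44 tested, 9 were higher, 2 were lower and 33 did not pass, with a median change of 0.15. Over all genes, 13.8% were higher and 9.91% lower, with a median change of 0.02. Whether either motif bears on the changes was not tested.

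Of 10 tested genes of interferon receptors and signalling, 1 rose, 3 fell and 6 did not pass, with a median change of −0.01. Socs1, an inhibitor of the JAK kinases, had scaled signals of 1107 and 1061 with fluoxetine, against 2165 and 2417 in control, a fall of 1.08 ± 0.10 (adjusted p = 0.0149). Socs3, a related inhibitor gene, fell by 0.43 ± 0.08 (adjusted p = 0.034). Ifngr2, an interferon gamma receptor chain gene, rose by 0.70 ± 0.13 (adjusted p = 0.0336). Ifnar1, a type I interferon receptor chain gene, fell by 1.05 ± 0.08 on its brightest probe (adjusted p = 0.0142), while another probe rose by 0.65 ± 0.11 (adjusted p = 0.0307) and one more was at 0.29. Tyk2 (0.40) and Ptpn2 (−0.23) did not pass, and Ifng and Ifnb1 were not well above background in either group.

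**Figure D4:**
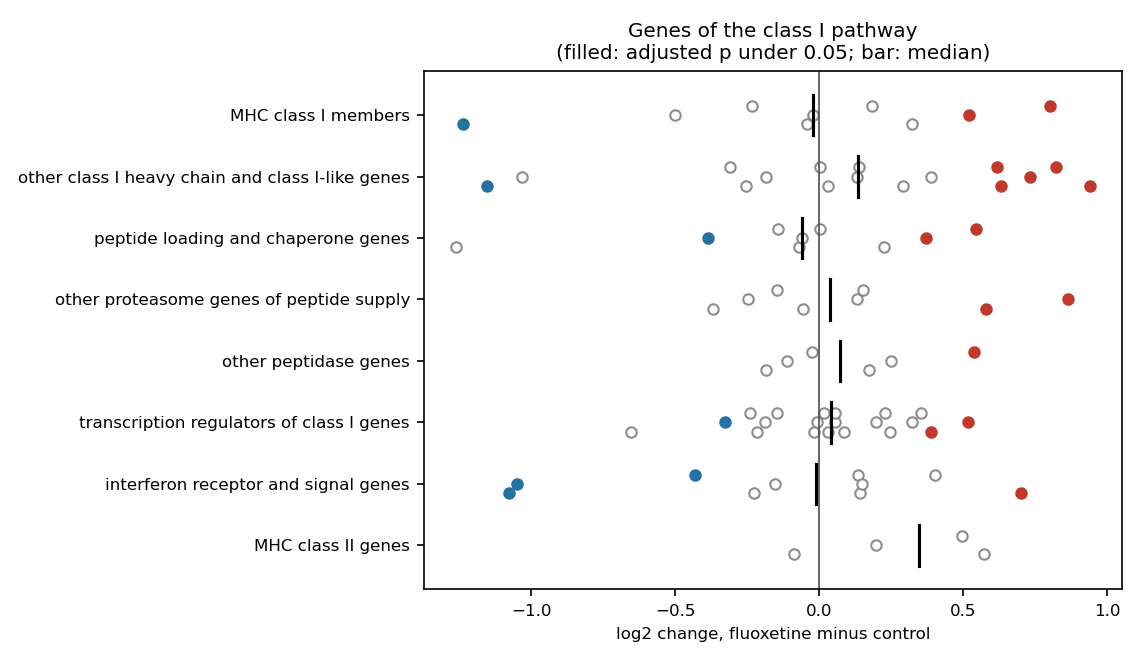
Log2 change, fluoxetine minus control, of each tested gene in the class I list and in 7 related lists, by the brightest tested probe. Filled points have an adjusted p under 0.05, red higher and blue lower, and black bars are list medians. Most points in each list are open, and every list median lies between −0.06 and 0.35.

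The sarcoma label was set against markers. Of 10 mesenchymal markers, 6 were well above background on both fluoxetine arrays and 7 on both control arrays. Their summed scaled signals were 42526 and 42057 with fluoxetine, against 50319 and 44863 in control. Because probes differ in how well they bind, such a sum is led by the brightest probes and does not measure cell content. Of the 7 tested, 3 fell and 4 did not pass, with a median change of −0.47. Over all genes, 9.91% were called lower. Vim (−0.08), S100a4 (−0.02), Fn1 (0.28) and Acta2 (−0.67) did not pass on their brightest probes. Another Fn1 probe rose by 0.37 ± 0.08 (adjusted p = 0.0462), and a further Fn1 probe was at −0.02. Sparc fell by 0.66 ± 0.08, while its other probe was at −0.19 and did not pass (adjusted p = 0.187). Col1a1 fell by 0.47 ± 0.10 but was dim, with 31.0 and 28.3 with fluoxetine, against 39.0 and 43.0 in control. Its other probe, not well above background with fluoxetine, was at least 1.73-fold lower. Col1a2, not well above background with fluoxetine, was at least 2.43-fold lower. Both of these probes passed the filter only through the control arrays, so their falls give no test of direction. Col1a2 is nonetheless 1 of the 3 falls counted. Col3a1, Thy1 and Pdgfrb were not well above background in either group. Of 7 epithelial markers, 5 were tested, 0 rose, 1 fell and 4 did not pass, and Cdh1 and Cldn4 were not well above background in either group. The keratin gene Krt14 fell by 2.18 ± 0.11 (adjusted p = 0.0142). The keratin gene Krt8 was well above background on all 4 arrays, with scaled signals of 45698 and 45784 with fluoxetine, against 52950 and 54266 in control, as was Epcam. The markers of neither kind were thus all present or all absent.

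Leukocytes also express class I genes. Of 21 leukocyte markers, 9 were tested: 2 rose, 1 fell and 6 did not pass, and 12, among them Ptprc, Tyrobp and Adgre1, were not well above background in either group. Their summed scaled signal was 30589 and 27559.9 with fluoxetine, against 17192.5 and 18334 in control. This sum too is led by the brightest probe and does not measure leukocyte content. Cd68, which encodes a lysosomal glycoprotein, contributed 23484 and 20413 with fluoxetine, against 8095 and 8998 in control, and rose by 1.36 ± 0.12 (adjusted p = 0.0149). Itgam, an integrin gene of myeloid cells, had 498 and 516 with fluoxetine, against 2044 and 1984 in control. It fell by 1.99 ± 0.08 on this brightest probe (adjusted p = 0.0142). Its other probe was dim and went the opposite way, with 25.2 and 25.5 with fluoxetine, against 8.36 and 25.4 in control. Only the fluoxetine arrays marked that probe well above background, and its change of 0.80 ± 0.59 did not pass (adjusted p = 0.354). The T cell receptor complex gene Cd3e rose by 0.49 ± 0.10 on its brightest probe (adjusted p = 0.0418). Its other probe was at −0.24 ± 0.20 with overlapping groups and did not pass (adjusted p = 0.408). The B cell gene Ms4a1, not well above background with fluoxetine, did not pass (adjusted p = 0.0621). Cd14 (−0.16), S100a8 (0.08), Csf1r (−0.19), Cd4 (−0.32) and Fcer1g (0.24) were well above background on all 4 arrays and did not pass. Cd14 had scaled signals of 4839 and 4637 with fluoxetine, against 5119 and 5474 in control. Of 11 MHC class II genes, a further mark of antigen-presenting cells, 4 were tested and 0 called in limma, with 1 at an unadjusted p under 0.05. H2-Aa, H2-Ab1 and H2-Eb1 were not well above background in either group, and the tested members with the largest changes were Ciita (0.57 ± 0.40) and H2-DMa (0.49 ± 0.11, adjusted p = 0.0503). Of 6 endothelial markers, 1 was tested and 0 were called, with 0 at an unadjusted p under 0.05. The part of any other cell type in the class I values was not tested.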

How the data were processed

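RNA of S-180 cells was hybridised to 4 single-colour Agilent arrays, 2 per group. The processed intensity of each spot was background-subtracted by the authors with no scaling across arrays, per the file headers, which name Feature Extraction 12.1.0.3. The deposited marks for dim, saturated and non-uniform spots were also used. With R 4.3.3 and limma 3.58.1, spots marked non-uniform or outlying were left out (47 of 56605 probes), spots of 1 probe were averaged, and log2 signal was scaled to each array's 75th percentile. Accessions were matched, without versions, to RefSeq symbols (assembly GRCm38.p6): 34645 probes had 1 symbol, 0 several and 21913 none. The array design used build mm9, so no probe coordinates are given. The test was lmFit and eBayes with group as the only term, on each probe and, for genes with several tested probes, on each pair. Errors are standard errors unless stated. The scripts were tested on simulated data. All members are named, and from each pathway list up to 4 called and 2 other genes with the largest changes by the brightest probe. H2-M2, H2-T10, parts of the X and Y box complex, other probes and the marker genes were named after their values were seen. Members and lists were chosen with earlier results of these data known. The number of arrays limits the precision.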

Additional observations from a re-analysis of the deposited data

How the results depend on the processing

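Of 28270 tested probes, 7489 were called. Leaving out 1 array gave between 0 and 3863 calls, between 0 and 1 called member probes, and between 0 and 0 of 6350 probe pairs, with 4 to 6 member probes at an unadjusted p under 0.05. Each such fit assumes that the lone array varies like the other group. No call remained among probes, member probes or pairs without the filter on dim probes (0, 0 and 0) or with the replicate block (0, 0 and 0), with 4 member probes at an unadjusted p under 0.05 in either case and 11979 and 10059 of all probes. Deviations of same-numbered arrays correlated at −0.107, so the numbers were not taken as pairs. A crossed replicate block, chosen after seeing the data, gave 3467 probes, 2 member probes and 0 pairs. At gene level the brightest probe gave 3802 and the mean of probes 3746 calls among 13539 genes, with 2 member genes called by the mean. The member pair, that of Tap1, was called as 1 pair with the strict filter, with quantile normalization and with normexp. Normexp used the median signal and was added after seeing the data, as was the percentile over distinct probes, and normexp on the mean signal was not run. No other member probe gained or lost a call beyond those described, except that quantile normalization ended the call of Tap1 (−1.07, adjusted p = 0.0605) and a trend in the variance added H2-K1 (A_55_P2049647) and Tap2. Normexp moved the brighter Tap1 probe to −0.71 (adjusted p = 0.0241). Dim signal limits the values of Nlrc5, Psmb8 and both Tap1 probes.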
